A study of Homo sapiens with 30 samples.

Results

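RNA levels of 10 cytokine-system genes were followed in 2 human glioblastoma cell lines exposed to interferon-γ (IFN-γ). The genes were IL6, LIF, IL11, IL1B, IL15, IL15RA, IL7, IL18BP, IL32 and CSF1, chosen by symbol, and all 10 were found among the 61471 rows of each line's table. The lines were U87-MG and U251-MG (here U87 and U251), established and unmodified glioblastoma lines that the study treats as mesenchymal-like and proneural-like, grown without immune cells. Each line had 5 groups of 3 biological replicates. Untreated cells received no IFN-γ. D3, D14 and D28 cells received human IFN-γ for 3, 14 and 28 days. For D28WO (washout) IFN-γ was withdrawn at day 14 and the cells were collected at day 28. The Untreated cells are labelled as collected on day 3, and the sources differ on that day and on the dose of IFN-γ. No Untreated cells were collected at day 14 or 28. Effects of IFN-γ and of time in culture therefore cannot be told apart in D14, D28 and D28WO against Untreated. The 15 U251 libraries and 13 of the 15 U87 libraries were used, which leaves D3 and D14 of U87 with replicates 2 and 3, and n = 2.

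IL6, LIF and IL11 are ligands of one family, which signal through the shared receptor chain gp130 (IL6ST) to STAT3. IL1B is the inflammatory cytokine that is cut to its active form by caspase 1, IL15 and IL7 sustain T and NK cells, and IL15RA is the chain that carries IL15 on the cell surface to neighbouring lymphocytes. IL18BP is a secreted protein that binds IL18 and blocks it, IL32 is an interferon- and TNF-responsive cytokine, and CSF1 is the survival factor of macrophages and microglia. Known DNA elements of the response to IFN-γ are the gamma-activated site (GAS) and the interferon-stimulated response element (ISRE), which IRF1 binds, whereas IL6, IL1B and LIF are known above all as targets of NF-κB and AP-1.

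Values are deposited as TPM (transcripts scaled to a fixed total per library), which corrects for gene length, so levels can be compared between genes as well as between libraries of a line. TPM keeps no sequencing depth, so the depth of each library cannot be read from the values, and the methods state only a minimum that applied to all. Genes above 0 numbered 24223 to 28649 in the U87 libraries and 24450 to 30246 in the U251 libraries. The Untreated U87 libraries had 24223 to 25459, fewer than every treated U87 library (26096 or more). In U251, Untreated had 24450 to 27187, D28 28955 to 30246 and D28WO 25633 to 26378. Whether this bears on the changes of low genes was not tested. Several interferon target genes did not follow the labelled presence of IFN-γ. IRF1 in U87 was at 133 ± 2.78 TPM (SD, n = 3) in Untreated, 122 ± 17.1 TPM (n = 2) in the libraries labelled D14 and 509.6 ± 46.5 TPM (n = 3) in those labelled D28WO. CIITA, the activator of MHC class II genes, was at 1.88 ± 0.727 TPM in Untreated U251, 130.5 ± 5.85 TPM at D3, 7.48 ± 0.621 TPM at D14 and 102 ± 6.56 TPM at D28WO (n = 3 each). The D14 libraries, with IFN-γ present by label, were thus low for these genes and the D28WO libraries, without it, were high, and the cause was not tested. The D3 and D28 results below gave the same calls when the D14 and D28WO libraries were left out of the fit, for all 40 member results and all 8 counts that this setting allows.

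Promoter windows from RefSeq (GRCh38.p14, 250 bases before to 50 after a start site) were matched for IL6, IL11, IL1B, IL15RA, IL32 and IL18BP, with 13 windows in all, and not for LIF, IL7, IL15 and CSF1. They were searched on both strands for the GAS motif TTCNNNGAA, an ISRE core (GAAA, any 2 bases, GAAA), an NF-κB motif and the AP-1 motif TGANTCA, which were present in 7.66%, 3.57%, 5.91% and 7.71% of the 35116 windows of all genes. The lines below show 30 bases around 1 match of each gene, with the match in capitals. The genes had different numbers of windows and the percentages are per window. No link between these motifs and the levels below was tested.
IL18BP, ISRE core, chr11:71999540-71999569, plus strand: gttaaaaagtGAAAGTGAAAtagagggtcg
IL15RA, GAS, chr10:5978154-5978183, minus strand: gcagcaggaaTTCGGCGAAgtggcggagct
IL1B, GAS, chr2:112836940-112836969, minus strand: ctccttgcccTTCCATGAAccagagaatta
IL32, NF-κB, chr16:3065294-3065323, plus strand: cctgtactcaGGGAGTTTCCCcagccagct
IL6, NF-κB, chr7:22727117-22727146, plus strand: tatcaaatgtGGGATTTTCCcatgagtctc
IL11, AP-1, chr19:55370541-55370570, minus strand: ggcagggagggTGAGTCAggatgtgtcagg

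The ISRE core of IL18BP began 67 bases before the start site of one of its windows, and the same window held 2 GAS matches, 37 and 7 bases before it. The GAS matches of IL15RA and IL1B began 127 and 180 bases before their start sites. In IL32, 2 overlapping NF-κB matches form the run in capitals, starting 99 and 98 bases before the start site. The NF-κB match of IL6 began 73 bases before its start site, and the AP-1 match of IL11 96 bases before. Other windows of IL15RA held the AP-1 motif. The windows of IL6, IL32 and IL11 held neither GAS nor ISRE letters, which says nothing of binding by any factor there or elsewhere. A wider stretch before the start site of the IL6 window follows, with the NF-κB match again in capitals. It is reference sequence, the same for both lines, and lies within the annotated bounds of the gene.
IL6, chr7:22726950-22727146, plus strand: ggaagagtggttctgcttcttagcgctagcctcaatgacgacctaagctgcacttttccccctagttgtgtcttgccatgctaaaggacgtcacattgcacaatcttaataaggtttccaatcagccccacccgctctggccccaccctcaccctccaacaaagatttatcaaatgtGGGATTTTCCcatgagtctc

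IL15, IL15RA and IL7, which act on lymphocytes, and the IL18 antagonist IL18BP rose at D3, D28 and D28WO against Untreated in both lines. IL6 rose in U87 at these times and passed the threshold in no group of U251. LIF rose at D3 and D28WO in U87 and fell at D3, D28 and D28WO in U251. Changes are log2 fold changes of log2(TPM + 1), which understate the change of low genes, fitted with limma within a line. The threshold was an adjusted p under 0.05 (Benjamini-Hochberg over the 22918 genes tested in U87 or the 23667 in U251) together with a log2 fold change beyond 1 in size, and rose and fell refer to genes past it. In bulk RNA, a change in the cells that carry a transcript and a change in RNA per cell cannot be told apart. All 10 genes were tested in both lines.

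In U87, 7 of the 10 genes rose at D3 and none fell, where 5.85% of all genes tested were higher and 0.384% lower. The D14 libraries had 1 of 10 higher and none lower (1.89% and 0.209% of all genes), D28 had 7 higher and none lower (6.77% and 0.611%), and D28WO had 8 higher and none lower (12.8% and 2.12%). In U251, 5 rose and 1 fell at D3 (9.72% of all genes higher, 4.55% lower), 4 rose and none fell at D14 (4.72% and 1.04%), 6 rose and 1 fell at D28 (11.9% and 3.35%), and 5 rose and 1 fell at D28WO (4.07% and 3.38%). The gene that fell was LIF each time. The median change of the 10 genes in U87 was 1.41, 0.20, 1.41 and 1.48 in D3, D14, D28 and D28WO, beside 0.20, 0.15, 0.19 and 0.25 for all genes tested. In U251 it was 1.52, 0.87, 1.78 and 1.04, beside 0.13, 0.096, 0.16 and 0.015. With median-ratio size factors the medians of all genes were 0.040, 0.00033, 0.036 and 0.068 in U87 and 0.043, 0.019, 0.065 and 0 in U251. U87 changes against Untreated are in general lower under that scaling. LIF at D28WO, for example, went from 1.04 to 0.81 and CSF1 at D28 from 1.01 to 0.81.

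**Figure D1:**
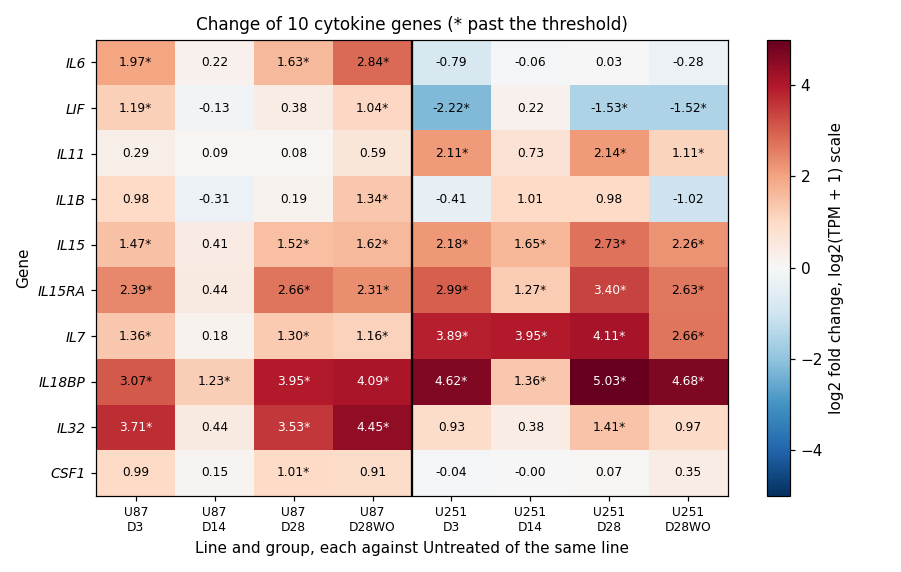
Log2 fold change (log2(TPM + 1) scale, colour and printed value) of the 10 genes (rows) in each group against Untreated of the same line (columns; n = 3, and n = 2 for D3 and D14 of U87), with an asterisk where the threshold was passed. IL15, IL15RA, IL7 and IL18BP are red in both lines at D3, D28 and D28WO, IL6 is red at D3, D28 and D28WO of U87 and pale or light blue in U251, and LIF is blue with an asterisk at D3, D28 and D28WO of U251 (-2.22, -1.53 and -1.52).

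IL6, the ligand that starts the acute-phase response (ENSG00000136244, chromosome 7, 22725884 to 22732002 in GRCh38), rose about 4-fold in U87 at D3 and was highest after washout. Its levels in U87 were 50.7, 63.0 and 47.8 TPM in Untreated, 229.7 and 196 TPM at D3, 68.2 and 57.4 TPM at D14, 170.0, 164 and 168 TPM at D28, and 377, 441 and 356 TPM at D28WO. Every D3, D28 and D28WO library lay above every Untreated library, every D28WO library lay above all others of the line, and D14 overlapped Untreated. The log2 fold changes against Untreated were 1.97 ± 0.13 (SE), 1.63 ± 0.11 and 2.84 ± 0.11 for D3, D28 and D28WO (limma, adjusted p = 1.8e-06, 2.2e-06 and 1.9e-08). At D14 the change was 0.22 ± 0.13 (limma, adjusted p = 0.33).

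In U251, IL6 was at 122, 119.8 and 108 TPM in Untreated, 64.9, 65.0 and 71.4 TPM at D3, 127, 118 and 93.0 TPM at D14, 114, 119.7 and 123 TPM at D28, and 82.3, 107 and 100.1 TPM at D28WO. The D3 libraries were the lowest of the line and overlapped no other group, while the order of D28, Untreated and D14 was within their spread. The change at D3 was -0.79 ± 0.11 (limma, adjusted p = 7.2e-05), short of the fold threshold, and at D28 it was 0.03 with a 95% interval of -0.21 to 0.27. Untreated U251 thus held 117 ± 7.28 TPM (SD, n = 3) of IL6 and Untreated U87 53.9 ± 8.07 TPM (n = 3), and the D28WO means were 96.5 ± 12.8 and 391 ± 44 TPM. The lines were normalized separately, and no test was made between them. IL6 shares 428 exonic bases with the antisense RNA IL6-AS1, and the sources do not say whether counting used strand, so reads of the pair may not be told apart. IL6-AS1 itself was at 5.15 ± 1.69 TPM in U87 at D28WO.

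LIF (ENSG00000128342, chromosome 22, 30240453 to 30246759), the stem cell and glioma cytokine of the same family, changed in opposite directions in the 2 lines. In U87 it was at 54.0, 64.5 and 49.9 TPM in Untreated, 137 and 121 TPM at D3, 54.5 and 47.7 TPM at D14, 74.4, 89.2 and 58.2 TPM at D28, and 104, 119 and 127 TPM at D28WO. Both D3 libraries and the 3 D28WO libraries lay above all Untreated libraries, and D28 overlapped Untreated. LIF rose by 1.19 ± 0.17 at D3 and 1.04 ± 0.15 at D28WO (limma, adjusted p = 0.00071 and 0.00018), and the change at D28 was 0.38 ± 0.15 (limma, adjusted p = 0.086). The D28WO call was lost without Untreated replicate 3 (0.96) or D28WO replicate 3 (0.98), and with quantile normalization (0.95) or median-ratio size factors (0.81, and 0.99 for D3).

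In U251, LIF was at 23.7, 29.7 and 20.9 TPM in Untreated and at 4.61, 4.23 and 4.53 TPM at D3. It was back at 29.5, 28.7 and 27.7 TPM at D14, and low again at D28 (5.08, 10.9 and 8.58 TPM) and D28WO (7.32, 8.88 and 7.46 TPM). The D14 and Untreated libraries overlapped, and every library of the other 3 groups lay below both. LIF fell by 2.22, by 1.53 and by 1.52 on the log2 scale in D3, D28 and D28WO (SE 0.20 each; limma, adjusted p = 1.3e-06, 4.4e-05 and 7.2e-05). The difference between D28WO and D28 was 0.00 with a 95% interval of -0.44 to 0.44. LIF shares 86 and 83 exonic bases with the antisense RNAs LIF-AS1 and LIF-AS2.

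IL11 (ENSG00000095752, chromosome 19, 55364382 to 55370463), the family member linked to fibroblasts and platelets, passed the threshold in U251 and not in U87, and the difference between lines was not tested. Its U251 levels were 37.0, 38.8 and 34.3 TPM in Untreated, 162, 155 and 168 TPM at D3, 59.9, 54.5 and 70.7 TPM at D14, 152, 162 and 182 TPM at D28, and 77.3, 88.4 and 76.4 TPM at D28WO. D3 and D28 overlapped each other and were above every other library, with D28WO, D14 and Untreated in separate steps below. IL11 rose by 2.11, 2.14 and 1.11 (SE 0.10 each) in D3, D28 and D28WO (limma, adjusted p = 1.1e-09, 8.8e-10 and 1.1e-06). In U87 the group means were 60.6 to 74.2 TPM from Untreated to D28 and 91.6 ± 1.95 TPM (n = 3) at D28WO, whose change of 0.59 ± 0.08 (limma, adjusted p = 0.0001) was under the fold threshold.

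IL1B (ENSG00000125538, chromosome 2, 112829751 to 112836816) was abundant in U87 and scarce in U251. In U87 its levels were 205, 224 and 212 TPM in Untreated, 475 and 375 TPM at D3, 188 and 158 TPM at D14, 253, 252 and 229.6 TPM at D28, and 505, 607 and 516 TPM at D28WO, the highest. No 2 neighbours in this order overlapped. IL1B rose by 1.34 ± 0.10 at D28WO (limma, adjusted p = 2.2e-06), and its change of 0.98 ± 0.11 at D3 lay just under the fold threshold, which it passed without Untreated replicate 2 (1.01), without D3 replicate 3 (1.15) or with quantile normalization (1.13).

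In U251, IL1B was at 2.83, 5.06 and 1.63 TPM in Untreated, 1.75, 1.51 and 2.81 TPM at D3, 8.03, 7.84 and 5.19 TPM at D14, 5.98, 5.73 and 9.04 TPM at D28 and 0.187, 0.770 and 2.48 TPM at D28WO. The D14 and D28 libraries were the highest and overlapped each other, and the other groups overlapped. Against Untreated no group passed the threshold (1.01 ± 0.39 at D14, 0.98 ± 0.39 at D28, -1.02 ± 0.39 at D28WO; limma, adjusted p = 0.083, 0.057 and 0.066). The D28WO change passed it without Untreated replicate 3 (-1.31) or D28WO replicate 3 (-1.44). The D14 change passed without Untreated replicate 2 (1.32) or D28WO replicate 3 (1.01), and the D28 change without Untreated replicate 2 (1.29).

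**Figure D2:**
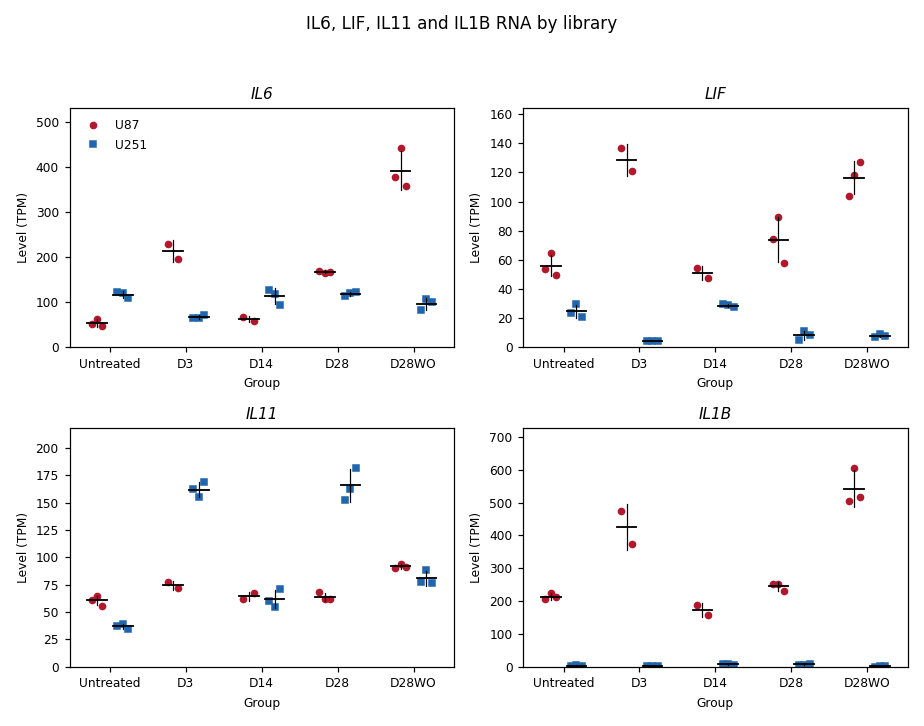
TPM (vertical axis, linear from 0) of IL6, LIF, IL11 and IL1B in every library by group (horizontal axis), with circles for U87 and squares for U251, horizontal bars for means and vertical bars for ± 1 SD. The U87 circles of IL6 and IL1B are highest at D28WO (391 and 543 TPM on average), the U251 squares of LIF are high in Untreated and D14 only, and those of IL11 are highest at D3 and D28 (162 and 166 TPM).

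IL15 and IL15RA both rose at D3, D28 and D28WO in either line. IL15 (ENSG00000164136, chromosome 4, 141636583 to 141733987) in U87 was at 14.2, 16.4 and 11.6 TPM in Untreated, 41.7 and 38.9 TPM at D3, 21.4 and 16.6 TPM at D14, 37.0, 38.4 and 51.4 TPM at D28, and 47.9, 44.5 and 43.0 TPM at D28WO. In U251 it was at 6.63, 5.52 and 3.40 TPM in Untreated, 26.9, 23.1 and 29.6 TPM at D3, 19.2, 16.8 and 17.7 TPM at D14, 40.6, 41.6 and 35.0 TPM at D28, and 29.2, 31.2 and 23.8 TPM at D28WO. All D14 libraries of both lines lay above Untreated and below the other 3 groups. Of those, D28 of U87 overlapped D3 and D28WO, and D28WO lay above D3. In U87 IL15 rose by 1.47 ± 0.17, 1.52 ± 0.15 and 1.62 ± 0.15 at D3, D28 and D28WO (limma, adjusted p = 0.00021, 4.7e-05 and 1.1e-05), with 0.41 ± 0.17 at D14 (limma, adjusted p = 0.19). In U251 it rose in all 4 groups, by 2.18, 1.65, 2.73 and 2.26 (SE 0.18 each) at D3, D14, D28 and D28WO (limma, adjusted p = 3.9e-07, 2.3e-05, 3.8e-08 and 4.5e-07).

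IL15RA (ENSG00000134470, chromosome 10, 5943639 to 5978187) had group means of 24.1, 130.1, 32.7, 157 and 123 TPM in U87, in the order Untreated, D3, D14, D28 and D28WO, with SDs of 0.427 to 18.0 TPM. In U251 the means in the same order were 7.25, 64.5, 18.8, 85.1 and 49.8 TPM, with SDs of 1.54 to 12.1 TPM. D3, D28 and D28WO of U251 did not overlap, and every treated library of both lines was above every Untreated library. IL15RA rose by 2.39, 2.66 and 2.31 at D3, D28 and D28WO of U87 and by 2.99, 1.27, 3.40 and 2.63 at D3, D14, D28 and D28WO of U251 (limma, adjusted p from 7.6e-10 to 4.9e-05). At D14 of U87 the change was 0.44 ± 0.15 (limma, adjusted p = 0.11). It shares 151 exonic bases with a long noncoding RNA on its own strand, so part of its reads could have been assigned to either.

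IL7 (ENSG00000104432, chromosome 8, 78675743 to 78805523) was low in Untreated U251, at 0.844, 1.87 and 0.784 TPM. It was at 25.5, 33.1 and 33.0 TPM at D3, 36.2, 30.3 and 28.9 TPM at D14, 35.4, 34.8 and 36.6 TPM at D28, and 11.7, 11.5 and 14.0 TPM at D28WO. D14 overlapped D3 and D28, D28 lay above D3, and D28WO lay below all 3 and above Untreated. In the libraries labelled D14, in which IL18BP and IL15RA were lower than at D3, IL7 differed from D3 by 0.06 with a 95% interval of -0.32 to 0.44. It rose by 3.89, 3.95, 4.11 and 2.66 at D3, D14, D28 and D28WO (SE 0.18 each; limma, adjusted p = 1.1e-09, 3.1e-09, 5.5e-10 and 7.9e-08), and the ratios of mean TPM were 26.2, 27.2, 30.5 and 10.6.

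In U87, IL7 was at 12.4, 16.9 and 12.7 TPM in Untreated, 39.1 and 35.5 TPM at D3, 15.5 and 16.2 TPM at D14, 35.7, 34.2 and 37.1 TPM at D28 and 27.3, 36.1 and 34.2 TPM at D28WO. D14 overlapped Untreated, and the other 3 groups overlapped among themselves above them. IL7 rose by 1.36 ± 0.15, 1.30 ± 0.14 and 1.16 ± 0.14 in D3, D28 and D28WO (limma, adjusted p = 0.00015, 6.2e-05 and 5.1e-05). With quantile normalization the D28 and D28WO values were 0.96 and 0.76, and with median-ratio size factors the D28WO value was 0.94, all under the fold threshold. IL7 shares 322 exonic bases with ZC2HC1A on the opposite strand.

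IL18BP (ENSG00000137496, chromosome 11, 71998613 to 72007315), the IL18 antagonist, passed the threshold in all 4 groups of both lines. In U87 it was at 3.44, 4.85 and 3.51 TPM in Untreated, 36.0 and 44.9 TPM at D3, 9.41 and 11.6 TPM at D14, 85.8, 63.0 and 76.9 TPM at D28, and 81.7, 77.0 and 88.4 TPM at D28WO. In U251 it was at 5.61, 7.05 and 4.99 TPM in Untreated, 137, 214 and 158 TPM at D3, 17.1, 13.8 and 19.2 TPM at D14, 205, 234 and 228 TPM at D28, and 163, 175 and 184 TPM at D28WO. In both lines D14 lay above Untreated and below D3, D28 and D28WO. In U87 D3 lay below D28 and D28WO, which overlapped, whereas in U251 D3 overlapped both and D28 lay above D28WO.

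IL18BP rose by 3.07 ± 0.17, 1.23 ± 0.17, 3.95 ± 0.15 and 4.09 ± 0.15 at D3, D14, D28 and D28WO of U87 (limma, adjusted p = 6.9e-07, 0.0056, 2.1e-08 and 1e-08). In U251 the rises were 4.62, 1.36, 5.03 and 4.68 (SE 0.16 each; limma, adjusted p = 5.3e-11, 3.8e-05, 1.8e-11 and 5.1e-11). The D14 call of U87 was lost without D14 replicate 3 (1.09; limma, adjusted p = 0.061), with quantile normalization (0.84) and with only the 2 compared groups in the fit (limma, adjusted p = 0.15). IL18 itself, chosen for mention after its values were seen, was at 153 ± 1.60 TPM in Untreated U251 and 80.0 ± 7.53 TPM at D28WO, and its U87 group means were 0.230 to 1.16 TPM. IL18BP shares 1031 exonic bases with NUMA1 on the opposite strand, whose level was 136 ± 5.36 TPM in Untreated U251 and 172 ± 10.7 TPM at D28.

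IL32 (ENSG00000008517, chromosome 16, 3065297 to 3082192) rose in U87 at D3, D28 and D28WO and in U251 at D28. It was at 4.78, 4.79 and 5.03 TPM in Untreated U87, 80.7 and 70.8 TPM at D3, 8.36 and 5.80 TPM at D14, 78.7, 52.0 and 72.0 TPM at D28, and 125, 128 and 127 TPM at D28WO. The D28WO libraries lay above all others, D3 and D28 overlapped, and D14 lay just above Untreated. IL32 rose by 3.71 ± 0.17, 3.53 ± 0.15 and 4.45 ± 0.15 at D3, D28 and D28WO (limma, adjusted p = 1.4e-07, 5.5e-08 and 7e-09). In U251, where Untreated cells already held 40.6 ± 1.77 TPM, the later means were 78.6 (D3), 53.9 (D14), 110.3 (D28) and 80.7 TPM (D28WO). Every treated U251 library lay above every Untreated one, and the change passed the threshold at D28 (1.41 ± 0.12; limma, adjusted p = 6.8e-07), with 0.93 and 0.97 at D3 and D28WO. These 2 passed without D3 replicate 1 (1.03) and without Untreated replicate 2 (1.01). IL32 overlaps the small nuclear RNA pseudogene RNU1-125P by 129 exonic bases.

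CSF1 (ENSG00000184371, chromosome 1, 109910242 to 109930992) was at or near the fold threshold at D3, D28 and D28WO of U87, and passed it in no group of U251. The U87 means were 91.0 ± 3.70 TPM in Untreated, 182 ± 1.73 TPM at D3, 101 ± 1.47 TPM at D14, 184 ± 9.24 TPM at D28 and 172 ± 1.22 TPM at D28WO, and no treated library overlapped Untreated. The changes at D3, D28 and D28WO were 0.99, 1.01 and 0.91 (SE 0.06 each; limma, adjusted p = 1.5e-06, 4.1e-07 and 4.6e-07), so that only D28 passed the fold threshold, and the change at D14 was 0.15 ± 0.06 (limma, adjusted p = 0.20). That call was lost without Untreated replicate 1 (0.99) or 3 (0.99), without D28 replicate 3 (0.97) and with median-ratio size factors (0.81), and the D3 change passed without Untreated replicate 2 (1.03) or D3 replicate 2 (1.00). In U251 the means were 269 to 292 TPM in Untreated, D3, D14 and D28, and 355 ± 16.2 TPM at D28WO (0.35 ± 0.05; limma, adjusted p = 0.00016).

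**Figure D3:**
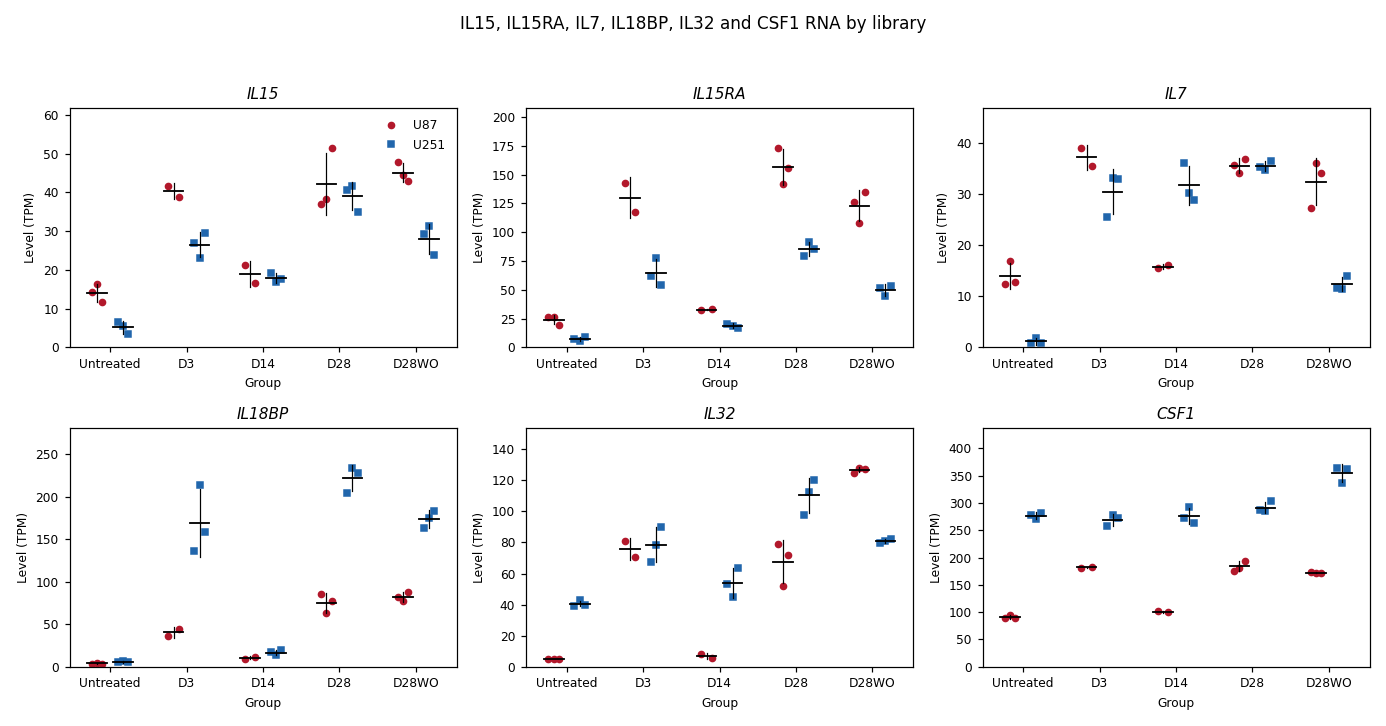
TPM (vertical axis, linear from 0) of IL15, IL15RA, IL7, IL18BP, IL32 and CSF1 in every library by group (horizontal axis), with circles for U87 and squares for U251, horizontal bars for means and vertical bars for ± 1 SD. IL18BP and IL15RA fall back at D14 in both lines (10.5 and 32.7 TPM in U87, 16.7 and 18.8 TPM in U251), whereas IL7 of U251 is at 31.8 TPM at D14 and 12.4 TPM at D28WO.

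Steps along the time course were tested directly. From D3 to D14 in U87, 8 of the 10 genes fell (2.05% of all genes lower) and none rose (0.576% higher). IL32 fell by 3.26 ± 0.19, IL15RA by 1.95 ± 0.16, IL18BP by 1.84 ± 0.19 and IL6 by 1.75 ± 0.14 (limma, adjusted p = 1.5e-06, 2.1e-05, 0.00013 and 2e-05), and IL11 and CSF1 did not pass (-0.21 and -0.85). With only these 2 groups of 2 libraries in the fit none of the 8 passed, and the call of IL15 was also lost without D3 replicate 2 or D14 replicate 3. In U251, IL18BP, IL15RA and IL11 fell (3.29% lower) by 3.26 ± 0.16, 1.72 ± 0.15 and 1.39 ± 0.10, while LIF and IL1B rose (3.19% higher) by 2.44 ± 0.20 and 1.41 ± 0.39 (limma, adjusted p = 1.2e-08, 2.6e-06, 3.3e-07, 1.7e-06 and 0.016). The call of IL1B was lost without D3 replicate 2 (1.29), D14 replicate 1 (1.32) or D14 replicate 2 (1.33).

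From D14 to D28, 6 of 10 rose in U87 (1.78% of all genes higher) and none fell (0.332% lower). IL32 rose by 3.08 ± 0.17, IL18BP by 2.72 ± 0.17, IL15RA by 2.22 ± 0.15, IL6 by 1.40 ± 0.13, IL7 by 1.12 ± 0.15 and IL15 by 1.11 ± 0.17 (limma, adjusted p from 7.8e-07 to 0.0029). The call of IL15 was lost without D14 replicate 3 (0.93) or D28 replicate 3 (0.96), and with only these 2 groups in the fit (1.11; limma, adjusted p = 0.072). In U251, IL18BP (3.67 ± 0.16), IL15RA (2.13 ± 0.15), IL11 (1.41 ± 0.10), IL15 (1.08 ± 0.18) and IL32 (1.03 ± 0.12) rose and LIF fell by 1.74 ± 0.20, beside 4.23% of all genes higher and 1.60% lower (limma, adjusted p from 3.2e-09 to 0.00065). The call of IL32 was lost without D14 replicate 2 (0.90) or D28 replicate 3 (0.96).

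After washout the lines again differed in which genes moved. Against D28, IL6 and IL1B rose in U87, by 1.22 ± 0.11 and 1.14 ± 0.10 (3.11% of all genes higher; limma, adjusted p = 0.00011 and 7.6e-05), and none of the 10 fell (2.42% lower). IL32 (0.92 ± 0.15), LIF (0.67 ± 0.15) and IL11 (0.52 ± 0.08) had adjusted p under 0.05 without reaching the fold threshold, and IL32 reached it without D28 replicate 1 (1.04). In U251 none rose (1.12% higher), and IL1B, IL7 and IL11 fell (8.14% lower) by 2.00 ± 0.39, 1.45 ± 0.18 and 1.03 ± 0.10 (limma, adjusted p = 0.0015, 3.9e-05 and 4e-06). The call of IL11 was lost without D28 replicate 3 (-0.96), D28WO replicate 1 (-0.998) or D28WO replicate 3 (-0.99), and with median-ratio size factors (-0.94). IL18BP and IL15 passed in neither line, with 95% intervals of -0.20 to 0.48 and -0.23 to 0.45 in U87 and of -0.69 to -0.02 and -0.85 to -0.09 in U251.

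Between D14 and D28WO, the libraries before and after 14 days without IFN-γ by label, 7 of 10 genes were higher at D28WO in U87 (6.30% of all genes higher) and none lower (3.39%). IL32 was higher by 4.0 ± 0.17, IL18BP by 2.86 ± 0.17, IL6 by 2.62 ± 0.13, IL15RA by 1.87 ± 0.15 and IL1B by 1.64 ± 0.11 (limma, adjusted p from 8e-08 to 6.4e-06), followed by IL15 (1.22) and LIF (1.17). In U251, IL18BP and IL15RA were higher by 3.31 ± 0.16 and 1.36 ± 0.15 (1.78% higher), and IL1B, LIF and IL7 were lower (5.38% lower), with changes of -2.03 ± 0.39, -1.74 ± 0.20 and -1.29 ± 0.18 (limma, adjusted p from 1.1e-08 to 0.0015). IL7 of U87 was at 0.98 ± 0.15 and passed the fold threshold without D14 replicate 3 or D28WO replicate 1 (1.01 and 1.10).

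**Figure D4:**
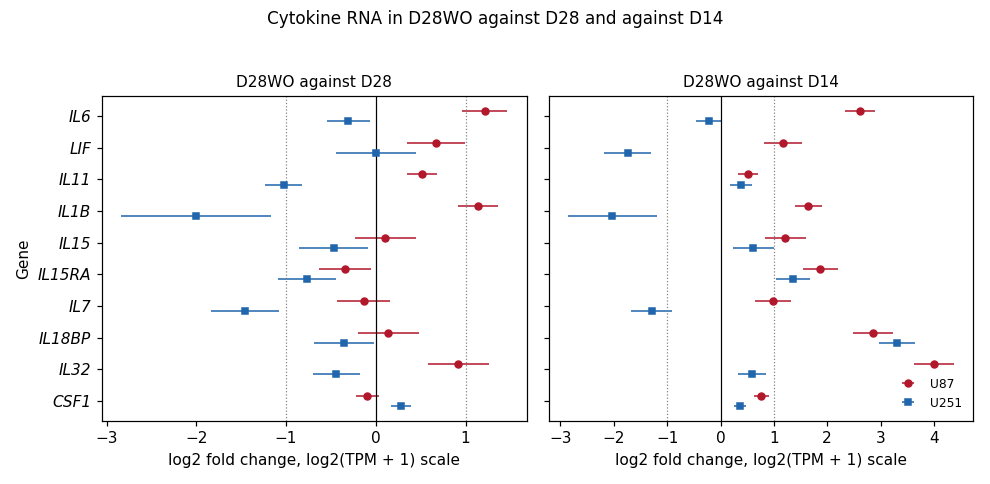
Log2 fold change (horizontal axis, log2(TPM + 1) scale) of D28WO against D28 (left) and against D14 (right) for the 10 genes (vertical axis), with circles for U87, squares for U251, bars for 95% intervals and dotted lines at the fold threshold of 1. Against D28, IL6 and IL1B of U87 lie right of the dotted line (1.22 and 1.14) and IL1B, IL7 and IL11 of U251 left of it (-2.00, -1.45 and -1.03).

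Receptor RNA was described for the same ligands, from a list of 13 chains. Of the 11 chains tested in U87, 0, 0, 3 and 2 rose in D3, D14, D28 and D28WO (5.85%, 1.89%, 6.77% and 12.8% of all genes), and 2 fell in D28WO (2.12%). Of the 12 tested in U251, 2, 1, 3 and 0 rose (9.72%, 4.72%, 11.9% and 4.07% of all genes) and 1, 0, 1 and 2 fell (4.55%, 1.04%, 3.35% and 3.38%). IL6ST, the chain shared by IL6, LIF and IL11, had group means of 104 to 121 TPM in U87 and 81.8 to 106 TPM in U251 and passed the threshold in no group against Untreated. IL6R, the ligand-specific chain of IL6, fell at D28WO in U87 from 12.4 ± 3.81 to 4.85 ± 1.09 TPM (-1.17; limma, adjusted p = 0.01) and in U251 from 18.8 ± 2.67 to 4.82 ± 0.972 TPM (-1.77; limma, adjusted p = 1.3e-05). In U251 it had also fallen at D3 and D28 (-1.09 and -1.95).

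LIFR rose in U251 at D3 and D28 (1.00 and 1.05; limma, adjusted p = 0.00056 and 0.00042), with changes of 0.71 and 0.87 at D14 and D28WO below the fold threshold, and its means in U87 were 29.7 to 38.3 TPM. IL11RA was at 16.6 to 47.3 TPM in the U87 groups and at 0.192 to 1.56 TPM in those of U251, the line in which IL11 rose. The lymphocyte chains that answer IL15 were scarce, with IL2RB at no more than 1.98 ± 1.03 TPM in any group of either line and IL2RG at no more than 1.21 ± 0.743 TPM. IL7R, the chain that binds IL7, was at 42.2 to 70.9 TPM in the U87 groups and passed the threshold in none. In U251 its means were 26.5, 28.8, 82.8, 53.5 and 7.17 TPM in Untreated, D3, D14, D28 and D28WO, so that it rose at D14 and fell at D28WO (1.59 and -1.77; limma, adjusted p = 3e-05 and 4.7e-06). CSF1R, the receptor of CSF1 and IL34, fell in U87 at D28WO from 55.2 ± 6.85 to 16.9 ± 5.89 TPM (-1.69; limma, adjusted p = 9e-05) and was at 2.28 to 3.33 TPM in U251. IL1R1 rose at D28 in both lines (1.40 and 1.43; limma, adjusted p = 1.5e-06 and 9.6e-07), and so did IL18R1 from 1.06 to 5.06 TPM in U87 and from 0.134 to 3.61 TPM in U251 (limma, adjusted p = 0.00073 and 3.9e-05).

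Of 25 related cytokines, 17 could be tested in U87 and 13 in U251. In the D3, D14, D28 and D28WO libraries of U87, 8, 1, 9 and 10 of them rose (5.85%, 1.89%, 6.77% and 12.8% of all genes) and none fell. In U251, 3 rose and 2 fell at D3 (9.72% and 4.55% of all genes), 3 rose at D14 (4.72%), 5 rose at D28 (11.9%), and 2 rose and 2 fell at D28WO (4.07% and 3.38%). The medians of those tested in U87 were 1.31, 0.34, 1.05 and 1.42, and in U251 they were -0.085, 0.57, 0.35 and -0.53. IL12A and IL23A, subunits of IL12 and IL23, rose at D3, D28 and D28WO in both lines, IL12A for example from 4.98 ± 2.49 to 38.1 ± 2.68 TPM at D28WO of U87 and from 4.48 ± 2.19 to 23.4 ± 0.557 TPM at D28 of U251.

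CSF2, encoding GM-CSF, rose in U87 at D3, D28 and D28WO (means of 4.87, 39.8, 6.21, 10.9 and 39.8 TPM in Untreated, D3, D14, D28 and D28WO). In U251 it rose at D14 and D28 (1.94, 1.49, 11.2, 7.0 and 0.322 TPM in the same order), and its change at D28WO was -0.89 (limma, adjusted p = 0.20). IL33 rose at D28 in both lines, but its group means were no more than 9.41 TPM in U87 and 2.23 TPM in U251. IL34, the second CSF1R ligand, was listed at 0 in all Untreated U87 libraries and was at 4.43 ± 2.40 TPM at D28WO, whereas in U251 it fell from 5.25 ± 0.687 to 1.24 ± 0.974 TPM (-1.57; limma, adjusted p = 0.0021).

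Among 6 genes for processing of IL1B and for shedding of receptors, CASP1, the IL1B-cleaving protease, rose in both lines at D3, D28 and D28WO. Its means were 18.4, 64.9, 17.4, 57.4 and 75.0 TPM in U87 and 34.1, 82.3, 54.4, 92.9 and 90.3 TPM in U251, in the order Untreated, D3, D14, D28 and D28WO. AIM2, a DNA sensor that recruits CASP1, rose at D3 and D28 in U87 (59.2 to 132 and 122 TPM) and in all 4 groups of U251, where it went from 0.0989 to 29.1 TPM at D28. The list gave 2, 0, 2 and 1 genes higher at D3, D14, D28 and D28WO of U87 (5.85%, 1.89%, 6.77% and 12.8% of all genes), with 1 lower at D14 (0.209%). In U251 2, 1, 2 and 2 were higher (9.72%, 4.72%, 11.9% and 4.07% of all genes) and none lower. Medians were 0.62, -0.13, 0.47 and 0.85 in U87 and 0.54, 0.0011, 0.92 and 0.17 in U251.

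Of 10 STAT3-responsive genes, known targets of the IL6 family, 1, 1, 0 and 1 rose at D3, D14, D28 and D28WO of U87 (5.85%, 1.89%, 6.77% and 12.8% of all genes) and none fell, with medians of 0.22, 0.16, 0.23 and 0.31. In U251 1, 1, 3 and 2 rose (9.72%, 4.72%, 11.9% and 4.07% of all genes) and 1 fell at D3 (4.55%), with medians of -0.064, 0.081, 0.094 and 0.58. None of the 10 passed the threshold in both lines at D28 or at D28WO.

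Markers of other cells were checked beside these results. The summed level of 10 leukocyte markers was 1.70 to 6.10 TPM over the U87 libraries and 1.02 to 10.1 TPM over those of U251, and PTPRC (CD45) averaged under 1 TPM in every group. Only 2 of the 10 could be tested in U87, where NKG7 rose at D3 and D14, and 4 in U251. In U251 the sum was 1.02 to 2.46 TPM in Untreated and 5.15 to 10.1 TPM at D28, and CD14 rose in all 4 groups, to 4.51 TPM at D3. Their part in the cytokine changes was not tested. The summed level of 8 neural and glial markers was 3826 to 3893 TPM in Untreated U251 and 1712 to 1943 TPM at D28, and 1950.2 to 2178 TPM and 1809 to 1951 TPM in U87. Among them, VIM and CD44 averaged 686 TPM or more in Untreated cells of both lines, while SOX2 was at 116 to 173 TPM in the U251 groups and at 0.0568 to 0.219 TPM in those of U87. GFAP fell in U251 from 1258 ± 46.3 to 243 ± 18.2 TPM at D28 (-2.37; limma, adjusted p = 1.7e-10) and rose in U87 from 4.84 ± 2.32 to 14.2 ± 5.70 TPM (1.38; limma, adjusted p = 0.02).

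Genes most like a member were ranked by the lower of the 2 within-line Pearson correlations over libraries (13 in U87, 15 in U251) among 20473 genes tested in both lines, as a description, since libraries of a group share their treatment. For IL6 they were NFKBIZ (r = 0.970 in U87 and 0.851 in U251), CH25H (0.960 and 0.832) and ZNF784 (0.876 and 0.818). For LIF they were LINC01910 (0.899 and 0.865), CD44-DT (0.829 and 0.850) and SOCS6 (0.874 and 0.829). IL15 was nearest to SERPING1 (0.977 and 0.970), RTP4 (0.967 and 0.976) and HCP5 (0.978 and 0.967). IL18BP was nearest to the IFN-γ targets GBP5 (0.984 and 0.990), APOL3 (0.975 and 0.975) and CIITA (0.972 and 0.992). IL6 and LIF correlated at 0.873 in U87 and 0.661 in U251, and IL15 and IL18BP at 0.961 and 0.900.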

How the data were processed

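RNA-seq libraries of U87 and U251 were prepared with a TruSeq kit and sequenced as paired reads. Per the labels and the methods, the authors trimmed reads with Trim Galore, aligned them with STAR to GRCh38, counted genes with featureCounts and used edgeR with limma-voom. How TPM was computed and whether counting used strand are not given in the sources used here. The deposited TPM values sum to 1000000 in each library. A supplementary sheet calls them CPM, but the values of genes above 0 in 1 library fell with exonic length (Spearman's rho -0.828 over 4375 genes in U87, -0.864 over 4253 in U251), as in TPM. Per-sample columns left out numbered 2, both in the U87 table and with 1 shared name. The methods state only a minimum number of reads for all libraries and TPM keeps no depth, so no limit is given for a listed 0.

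On log2(TPM + 1), limma (version 3.58.1, R version 4.3.3; lmFit, eBayes with trend) was fitted to all genes averaging 0.5 TPM or more in a line, with its 5 groups in 1 model, 8 comparisons and Benjamini-Hochberg adjustment over all genes tested. The fit was checked on simulated data. With 3 libraries against 3, the smallest exact permutation p is 0.1, so no single-gene permutation test was used. Members and gene lists were chosen with earlier results of these data known. The text names all 10 members, listed genes past the threshold at D28 or D28WO in both lines, the receptor chains of IL6, LIF, IL11, IL15 and CSF1, markers of other cell types, and the 3 most correlated genes of IL6, LIF, IL15 and IL18BP. IL18, IL7R and the markers singled out were chosen after their values were seen. Coordinates are from GENCODE release 44. Replicates were separate cultures, per the methods. Alternatives were a pseudocount of 0.1, no filter, a filter at 1 TPM, median-ratio size factors, quantile normalization, array weights, a replicate block, a fit of only the 2 compared groups, adjusted p alone, each library left out in turn and, chosen after seeing the data, no D14 and D28WO libraries. The lines' tables were normalized separately and were not compared in a test.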

Additional observations from a re-analysis of the deposited data

Results flagged for a closer look

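In 17 comparisons of a member, every library of one group lay to one side of every library of the other group in U87 and to the opposite side in U251. The share of all genes tested that meets this rule was not computed, so the count is a description only. Some of the changes listed did not pass the threshold. The difference between lines was not tested, because their tables were normalized separately. The values are log2 fold changes of log2(TPM + 1), U87 first and U251 second.

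For IL6 they were 1.97 and -0.79 at D3 against Untreated, 2.84 and -0.28 at D28WO against Untreated, -1.75 and 0.73 at D14 against D3, and 1.22 and -0.31 at D28WO against D28. For LIF they were 1.19 and -2.22 at D3 against Untreated, 1.04 and -1.52 at D28WO against Untreated, -1.32 and 2.44 at D14 against D3, 0.51 and -1.74 at D28 against D14, and 1.17 and -1.74 at D28WO against D14. LIF thus met the rule in 5 of 8 comparisons, and how often other genes tested do so was not computed.

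For IL1B they were -0.31 and 1.01 at D14 against Untreated, -1.29 and 1.41 at D14 against D3, 1.14 and -2.00 at D28WO against D28, and 1.64 and -2.03 at D28WO against D14. At D28WO against D28 the same held for IL11 (0.52 and -1.03), IL32 (0.92 and -0.44) and CSF1 (-0.093 and 0.28), and at D28WO against D14 for IL7 (0.98 and -1.29).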

How the results depend on the processing

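Of the counts of members past the threshold, those not named here stayed within 1.5 times their value under every alternative run. In U87, the 1 member higher at D14 became 0 with quantile normalization and with only the 2 compared groups, and leaving out each library in turn gave 0 to 1. The 8 lower at D14 than at D3 became 0 with only the 2 compared groups, a fit of 2 libraries against 2. With the adjusted p alone, 5 members were higher at D28WO than at D28 in U87. In U251 that criterion gave 2 lower at D3 than in Untreated, 5 lower at D14 than at D3, 1 higher and 5 lower at D28WO than at D28, and 6 higher at D28WO than at D14. The 1 lower at D28WO against Untreated in U251 became 2, with IL1B, at a pseudocount of 0.1 and with array weights, and was 1 to 2 with libraries left out. The 2 higher at D14 than at D3 in U251 became 1 at a pseudocount of 0.1 and were 1 to 2 with libraries left out. Causes were not tested.

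No member past the threshold changed direction. Changes near 0 that were not past it did so in 3 settings and on leaving out libraries. With quantile normalization the values were -0.023 (IL11) and -0.10 (IL7) at D14 and -0.040 (IL11) at D28 of U87, and 0.041 at D3 and 0.083 at D14 of U251 (CSF1), all against Untreated. With median-ratio size factors they were -0.093 (IL11) and -0.033 (CSF1) at D14 and -0.11 (IL11) at D28 of U87, and -0.091 (IL6) and -0.046 (CSF1) at D28 of U251. With array weights LIF at D28WO against D28 of U251 was -0.069. With libraries left out the ranges were -0.068 to 0.050 for IL11 at D28 against D14 of U87 and, in U251, -0.15 to 0.070 (IL6) and -0.044 to 0.029 (CSF1) at D14 and -0.022 to 0.061 (IL6) at D28 against Untreated, -0.063 to 0.12 (IL7) and -0.0016 to 0.071 (CSF1) at D14 against D3, -0.041 to 0.18 (IL6) and -0.21 to 0.082 (IL1B) at D28 against D14, and -0.27 to 0.22 (LIF) at D28WO against D28.

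Replicate numbers are shared across groups but did not pair the libraries. Same-numbered libraries had deviations from their group means that correlated at -0.058 to 0.047 in U87 (23 pairs) and -0.037 to 0.048 in U251 (30 pairs), and 8 of 13 and 8 of 15 libraries correlated more, on average, with libraries of their own number than with others. With the replicate block every count was within 1.5 times its value, as with D14 at 1 and D28 at 7 members higher in U87, and IL7 at D28WO against D14 of U87 moved past the fold threshold (1.05). TPM keeps no depth, so the counting error of low genes such as IL1B in U251 was not estimated.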
